A study of Mus musculus with 6 samples.

Results

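Krüppel-like factors (KLFs) are zinc-finger transcription factors, and the transcripts of 10 of them were followed in primary cultured mouse renal tubule epithelial cells (RTECs) with and without transforming growth factor (TGF)-β1. Klf2, Klf4, Klf5, Klf6, Klf7, Klf9, Klf10, Klf11, Klf13 and Klf15 were taken by gene symbol from the 46517 genes of the count files, and all 10 had enough counts to be tested. The cells came from kidneys of wild-type FvB mice, labelled as 4 to 6 weeks old, and were grown in RPMI 1640 with 10% serum and 20 ng/ml EGF to 70% confluence. All 6 cultures then spent 24 h without serum. The 3 TGF-β1 cultures received TGF-β1 at 50 ng/ml for a further 24 h and the 3 CTL cultures are labelled as control. The cultures hold cells freed from kidneys by collagenase, without the matrix or blood flow of the tissue. Markers of tubule cells and of other cell types are given below. The sources do not say whether the 3 cultures of a group came from separate mice, so p-values measure the spread between these cultures, which may in part be technical.

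KLFs carry C2H2 zinc fingers at the carboxyl end, through which they bind GC-rich and CACCC sequences in promoters, and they differ in the amino-terminal part that recruits coactivators or corepressors. Klf10 and Klf11 were first described as TGF-β-inducible early genes and, like Klf9 and Klf13, bind the Sin3 corepressor. Klf4 is linked to cell cycle exit and epithelial differentiation, Klf5 to epithelial proliferation, Klf2 to the quiescent endothelium, Klf6 to the early response to injury, and Klf15 to glucocorticoid signaling and amino acid breakdown.

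With TGF-β1, Klf13 rose 1.65-fold, and Klf4, Klf5 and Klf15 fell to 0.73, 0.512 and 0.333 of the CTL level (fitted folds). Of the 6 fits that left out 1 culture, Klf13 passed in 6, Klf5 in 2, Klf15 in 1 and Klf4 in 0. Klf10 and Klf11 had fitted folds of 1.48 and 1.24, and Klf2, Klf6, Klf7 and Klf9 had folds of 0.558, 0.792, 0.879 and 0.873, none of which passed the test of the 2 groups. In this test 4 of the 10 genes passed, against 11.7% of the 15862 genes tested. The direction was the same in all 3 same-numbered pairs of cultures for each of the 10 genes, against 63.0% of all genes tested.

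Libraries held 28313080 to 34183497 counts on genes. Same-numbered CTL and TGF-β1 cultures deviated together from their group means. This was least clear for number 1, with a correlation across genes of 0.34 against 0.22 for CTL replicate 1 with TGF-β1 replicate 3. Pairing by the numbers of the titles was inferred from this and is not stated in the sources. For the KLF genes results are also given with the number as a block where this changes the call. For the other lists the counts with the block are given beside those without it. Replicate 2 of both groups stood apart from replicates 1 and 3, with 4 Y-linked genes at a summed 154 and 136 CPM (counts on genes scaled to library size) against at most 0.177 CPM in the other 4 libraries. The paper's methods describe male mice of a slightly younger age range than the labels, and Xist was at 198 to 652 CPM in all 6 libraries. Replicates 1 and 3 thus do not match the male mice described, and replicate 2 held both Xist and Y-linked transcripts. The spread within groups therefore includes a difference in the sex of the cells, whose part in the KLF results was not tested. Epithelial markers (Epcam, Cdh1, Krt8, Krt18, Krt19, Cdh16 and Pax8) summed to 1042 and 850.1 CPM in the replicate 2 CTL and TGF-β1 libraries and to 1748 to 2825 CPM in the others. Replicate 2 was lowest in both groups for 5 of the 7. For Cdh16 and Pax8 it was lowest with TGF-β1 only, and in CTL it was highest for Pax8. The 8 fibroblast and mural markers summed to 2208 and 2799 CPM in the replicate 2 libraries against 866 to 1239 CPM, a sum carried by Col1a1 and Col1a2. In both groups replicate 2 was highest for 4 of the 8 (Col1a1, Col1a2, Pdgfrb and Dcn) and lowest for 2 (Thy1 and Pdgfra). Their part in the results for the KLF genes was not tested. Of the lists of other tubule segments, 2 of 6 loop and distal, 2 of 6 collecting duct and 1 of 8 proximal tubule markers had at most 3 counts in every library. Slc34a1 and Slc5a2 of the proximal tubule and Aqp2 of the collecting duct were below the filter on low counts. The 8 endothelial markers summed to 2.9 to 5.99 CPM and the 8 leukocyte markers to 4.43 to 10.2 CPM over all libraries. In bulk libraries, fewer cells of a type and less RNA per cell cannot be told apart.

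On GRCm38, the annotation placed Klf10 (ENSMUSG00000037465.9) at chr15:38291463-38300706 on the minus strand, Klf11 (ENSMUSG00000020653.10) at chr12:24651274-24662789 on the plus strand and Klf13 (ENSMUSG00000052040.9) at chr7:63886351-63938915 on the minus strand. It placed Klf4 (ENSMUSG00000003032.8) at chr4:55527143-55532466 on the minus strand, Klf5 (ENSMUSG00000005148.7) at chr14:99298691-99315036 on the plus strand and Klf15 (ENSMUSG00000030087.10) at chr6:90462576-90475238 on the plus strand. The positions of the others were Klf2 (ENSMUSG00000055148.7) at chr8:72319033-72321656 on the plus strand and Klf6 (ENSMUSG00000000078.6) at chr13:5861482-5870394 on the plus strand, and Klf7 (ENSMUSG00000025959.12) at chr1:64029447-64122282 on the minus strand and Klf9 (ENSMUSG00000033863.1) at chr19:23141226-23168134 on the plus strand. The 10 genes thus lay on 10 chromosomes. Genes that overlap Klf7, Klf9 or Klf13 held at most 2 counts in any library.

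Promoters are shown for Klf13, which rose, and for Klf4 and Klf15, which fell, since these are the genes past the test whose entry RefSeq holds in the table used (8 of 10 matched; Klf5 and Klf10 did not). The letters are the 250 bases before the RefSeq start, 5′ to 3′ on the gene's strand, on GRCm38.p6. Capitals mark the GC box GGGCGG of the Sp and KLF factors, the E box CACGTG of basic helix-loop-helix factors and the Smad motif CAGAC, each on either strand, and adjoining or overlapping matches run together.
Klf13 (chr7:63938916-63939165, minus strand): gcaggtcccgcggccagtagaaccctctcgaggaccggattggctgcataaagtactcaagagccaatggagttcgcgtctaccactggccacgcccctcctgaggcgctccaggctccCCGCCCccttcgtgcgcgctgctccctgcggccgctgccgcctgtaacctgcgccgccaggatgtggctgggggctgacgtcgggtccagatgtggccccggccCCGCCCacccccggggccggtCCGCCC
Klf4 (chr4:55532476-55532725, minus strand): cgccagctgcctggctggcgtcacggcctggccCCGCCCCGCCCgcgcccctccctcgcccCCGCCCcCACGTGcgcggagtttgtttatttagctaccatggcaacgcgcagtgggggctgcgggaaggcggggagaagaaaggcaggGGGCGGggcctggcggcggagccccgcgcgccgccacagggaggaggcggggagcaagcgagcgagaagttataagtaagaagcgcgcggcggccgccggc
Klf15 (chr6:90462326-90462575, plus strand): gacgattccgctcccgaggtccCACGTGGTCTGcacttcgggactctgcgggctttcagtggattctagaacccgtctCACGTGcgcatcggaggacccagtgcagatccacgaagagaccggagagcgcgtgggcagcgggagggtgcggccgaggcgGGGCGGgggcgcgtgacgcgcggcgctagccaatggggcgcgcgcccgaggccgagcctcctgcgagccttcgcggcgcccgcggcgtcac
All 3 windows lie upstream of the gene, outside annotated exons. The Klf13 window held 3 GC boxes and neither an E box nor CAGAC. The Klf4 window held 4 GC boxes, 2 of them overlapping in one run, and 1 E box. The Klf15 window held 1 GC box, 2 E boxes and 1 Smad motif that adjoins the first E box. Over the 8 windows, 7 held a GC box against 32.7% of all 32817 windows of this length, and 4 (Klf4, Klf6, Klf11 and Klf15) held an E box against 6.02%. CAGAC was in 1 of the 8 windows against 42.2% of all, and CACCC in 5 against 52.0%. None of the 8 held the palindrome GTCTAGAC or the cyclic AMP element TGACGTCA, which 0.168% and 1.55% of all windows hold. These counts are matches of letters, and the windows of the KLF genes are GC-rich, at 59.2% to 76.8%.

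Klf13, a repressor and activator of the group that binds the basic transcription element and known for its part in lymphocyte chemokine expression, had the clearest rise. Its normalized counts (scaled by TMM factors to the geometric mean library) were 2402, 2221 and 2424 in CTL replicates 1, 2 and 3 and 4130, 3408 and 4122 in the TGF-β1 cultures. Every TGF-β1 culture lay above every CTL culture. TGF-β1 against CTL gave a log2 difference of 0.73 (SE 0.087, edgeR adjusted p = 0.00802 from the quasi-likelihood test, n = 3 per group). Within pairs the log2 ratio was 0.78, 0.62 and 0.77. Klf13 passed in each of the 6 fits that left out 1 culture (adjusted p from 0.00514 to 0.0489, edgeR), and had an adjusted p of 0.238, 0.00121 and 0.0667 when both cultures of number 1, 2 or 3 were left out (edgeR).

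Klf10, whose product represses transcription through Sin3, had 1811, 1322 and 1954 normalized counts in CTL and 2665, 2000 and 2837 with TGF-β1. The groups did not overlap, although TGF-β1 replicate 2 was only just above CTL replicate 3, and replicate 2 was lowest in both groups. On the log2 scale the difference was 0.56 (SE 0.19, edgeR adjusted p = 0.115). The 3 within-pair log2 ratios were close together, at 0.56, 0.60 and 0.54. With the replicate block Klf10 passed at the same difference of 0.56 (SE 0.044, edgeR adjusted p = 7.01e-05). It also passed without both replicate 2 cultures (adjusted p = 0.00567, edgeR) and by DESeq2 (adjusted p = 0.0318).
Klf11, its closest relative, had 1056, 993 and 1167 normalized counts in CTL and 1433, 1077 and 1490 with TGF-β1. TGF-β1 replicate 2 lay inside the CTL range, so the groups overlapped. By edgeR the log2 difference was 0.32 (SE 0.13, adjusted p = 0.187), with pair ratios of 0.44, 0.12 and 0.35 on the log2 scale. Klf11 passed with the replicate block (adjusted p = 0.0102), without both replicate 2 cultures (adjusted p = 0.0196) and without TGF-β1 replicate 2 alone (adjusted p = 0.041, edgeR).

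**Figure D1:**
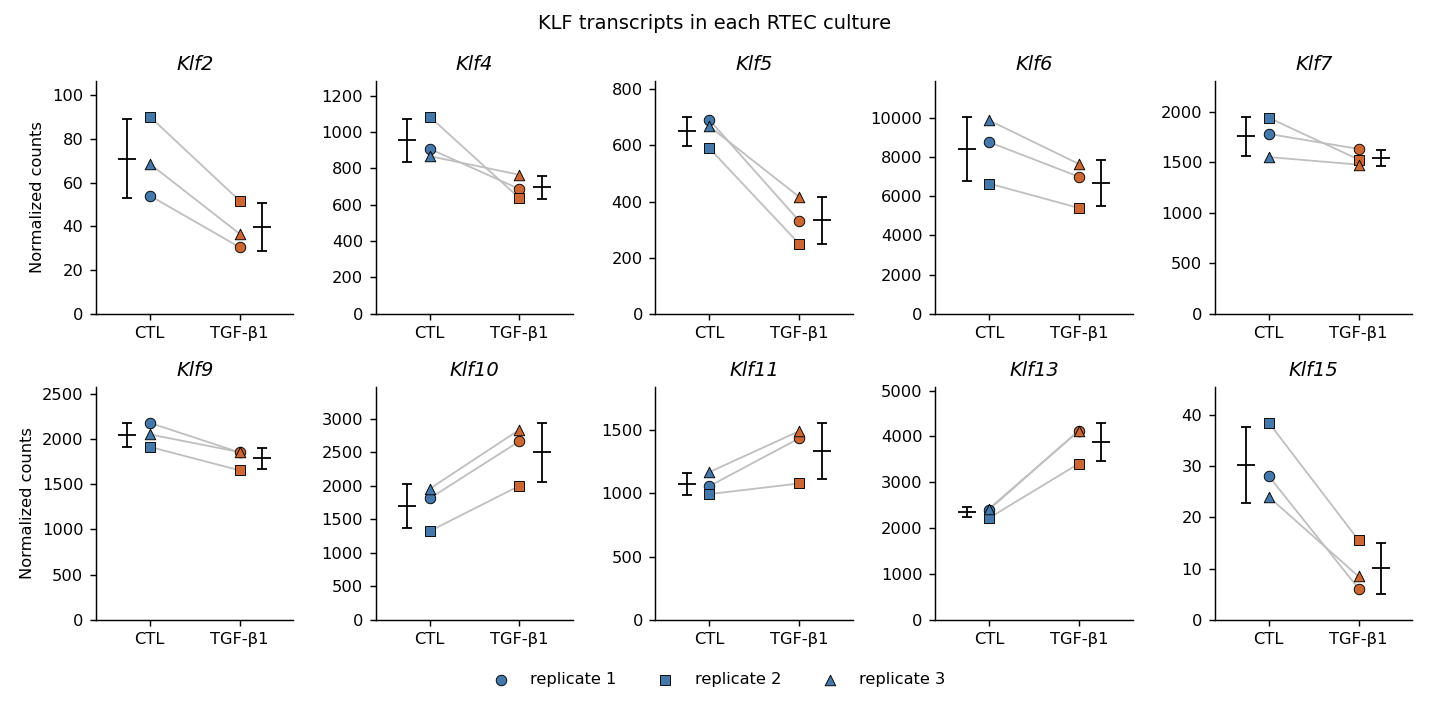
Normalized counts (vertical axis, from 0) of the 10 KLF genes in the 3 CTL and 3 TGF-β1 cultures, with lines joining same-numbered cultures and bars giving the mean ± SD (n = 3). Lines rise for Klf10, Klf11 and Klf13 and slope down for the other 7 genes, and replicate 2 (squares) is lowest in both groups for Klf5, Klf6, Klf9, Klf10, Klf11 and Klf13.

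Among the genes tied to epithelial growth and differentiation, Klf5 and Klf4 both fell. Klf5 had 692, 590 and 668 normalized counts in CTL and 331, 250 and 417 with TGF-β1. The highest TGF-β1 culture was well below the lowest CTL culture. TGF-β1 against CTL gave a log2 difference of -0.97 (SE 0.19, edgeR adjusted p = 0.0272), and the pair ratios were -1.06, -1.24 and -0.68 on the log2 scale. The call was lost without CTL replicate 1, 2 or 3 (adjusted p = 0.117, 0.0507 and 0.0698) and without TGF-β1 replicate 1 (adjusted p = 0.107, edgeR). Without both cultures of replicate 1, 2 or 3 the adjusted p was 0.372, 0.0103 and 0.0653 (edgeR).
Klf4 had 909, 1086 and 868 normalized counts in CTL and 687, 637 and 765 with TGF-β1, again without overlap. Replicate 2 was the highest CTL culture and the lowest TGF-β1 culture. On the log2 scale the difference was -0.45 (SE 0.11, edgeR adjusted p = 0.0499), with pair ratios of -0.40, -0.77 and -0.18 on the log2 scale. This call lay at the threshold and was lost in all 6 fits that left out 1 culture (adjusted p from 0.0614 to 0.152) and by limma-voom (adjusted p = 0.0535). Without both cultures of replicate 1, 2 or 3 the adjusted p for Klf4 was 0.405, 0.0685 and 0.0904 (edgeR).

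Klf15, which glucocorticoids induce and which drives genes of amino acid breakdown, had the largest fold of the 10 genes and the lowest counts. CTL libraries held 29, 40 and 22 reads of it and TGF-β1 libraries 6, 15 and 9. Normalized counts were 28, 38.5 and 24 in CTL and 6.09, 15.5 and 8.45 with TGF-β1, without overlap. By edgeR the log2 difference was -1.59 (SE 0.38, adjusted p = 0.0472), and the pair ratios were -2.11, -1.28 and -1.45 on the log2 scale. Klf15 kept its call in 1 of the 6 fits that left out a culture, that without TGF-β1 replicate 2 (adjusted p = 0.0369), and had adjusted p from 0.0698 to 0.149 in the other 5. Without both cultures of replicate 1, 2 or 3 the adjusted p was 0.393, 0.0256 and 0.169 (edgeR).
Klf9, a second glucocorticoid-responsive KLF, had 2177, 1911 and 2049 normalized counts in CTL and 1850, 1652 and 1853 with TGF-β1. The groups did not overlap, but the lowest CTL and highest TGF-β1 cultures were close. TGF-β1 against CTL gave a log2 difference of -0.20 (SE 0.072, edgeR adjusted p = 0.137), and blocking on the number brought the adjusted p to 0.0121.

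Klf2, known as a flow-induced factor of endothelial cells, had 54.1, 90.4 and 68.7 normalized counts in CTL and 30.5, 51.8 and 36.6 with TGF-β1. The groups came within a few counts of overlapping, and replicate 2 was highest in both. On the log2 scale the difference was -0.84 (SE 0.28, edgeR adjusted p = 0.11), while the pair ratios of -0.82, -0.80 and -0.90 on the log2 scale lay close together. Blocking on the number brought the adjusted p to 0.00517 (edgeR). Of the endothelial markers, Pecam1, Cdh5, Tek, Tie1 and Vwf were below the filter on low counts. The summed level of the 8 markers was 3.42, 5.99 and 3.18 CPM in CTL replicates 1, 2 and 3 and 4.76, 5.59 and 2.9 CPM with TGF-β1. In both groups replicate 2 was highest for 5 of the 8, as for Klf2. Their part in the result for Klf2 was not tested.

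Klf6, which is induced early after injury in many cell types, had the highest level per length of the 10 genes. It had 8774, 6655 and 9887 normalized counts in CTL and 7001, 5403 and 7656 with TGF-β1. The groups overlapped, because CTL replicate 2 was below TGF-β1 replicates 1 and 3. By edgeR the log2 difference was -0.34 (SE 0.19, adjusted p = 0.295), with pair ratios of -0.33, -0.30 and -0.37 on the log2 scale. With the replicate block Klf6 passed (SE 0.042, adjusted p = 0.000728), and without both replicate 2 cultures the adjusted p was 0.0391 (edgeR).
Klf7, a factor of neuronal development, had 1780, 1940 and 1551 normalized counts in CTL and 1631, 1527 and 1476 with TGF-β1, with overlap. TGF-β1 against CTL gave a log2 difference of -0.19 (SE 0.091, edgeR adjusted p = 0.24), and it was the 1 gene of the 10 that did not pass with the block either (adjusted p = 0.0537).

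**Figure D2:**
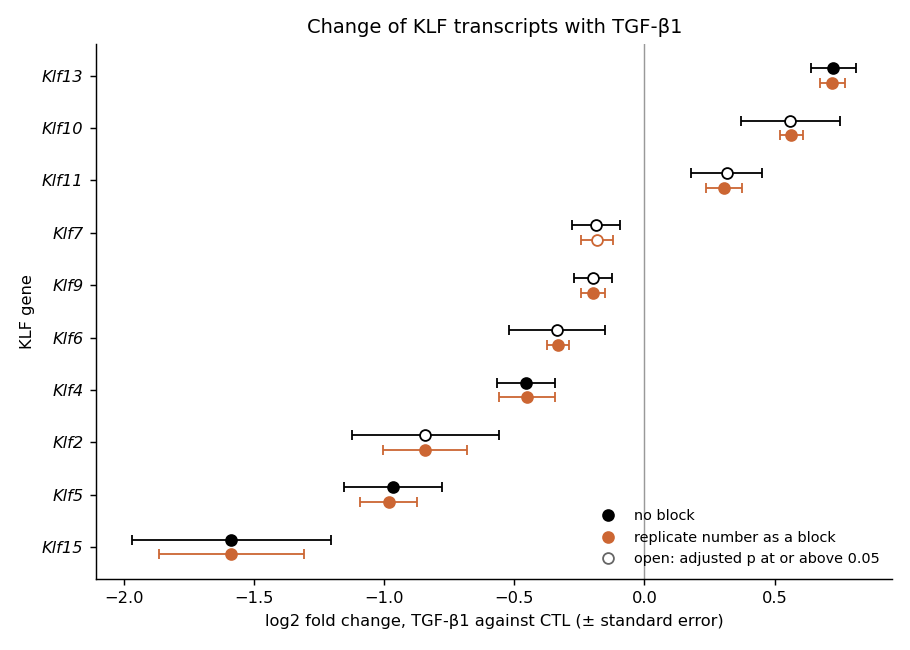
Log2 fold change of TGF-β1 against CTL (horizontal axis) with its standard error for each of the 10 KLF genes, from edgeR without a block (black) and with the replicate number as a block (orange); filled points have an adjusted p under 0.05. Estimates barely move between the fits, from -1.59 for Klf15 to 0.73 for Klf13 without the block, while the standard errors of Klf6 and Klf10 shrink from 0.19 and 0.19 to 0.042 and 0.044.

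In all, 1 of the 10 genes was higher and 3 were lower at an adjusted p under 0.05 (edgeR). Of the 15862 genes tested, 11.7% passed in either direction, 5.00% higher and 6.69% lower. With the replicate block 3 KLF genes were higher and 6 were lower, where 34.2% of all genes passed, 15.1% higher and 19.1% lower. The groups did not overlap for 7 of the 10 genes, 2 of them higher and 5 lower, against 35.2% of all genes, 17.2% higher and 18.0% lower. The 3 pairs had 1 direction for 10 of 10, against 63.0% of all genes. That direction was up for 3, against 30.4%, and down for 7, against 32.6%. The median log2 fold change of the 10 genes was -0.27, and that of all genes tested was -0.003. The 10 genes were chosen with earlier results of these data known. The spread between cultures of a group and the spread left within numbers were far apart for some of these genes. The SD of log2 normalized counts within groups was 0.38 for Klf2, 0.28 for Klf6 and 0.28 for Klf10, and once each number's mean was also removed it was 0.038, 0.024 and 0.022. For Klf4 it went the other way, from 0.15 to 0.21, since its replicate 2 cultures deviated in opposite directions.

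Levels of different genes can be compared only per length, and are given here as CPM per kb of exon (union of all annotated exons). Klf6 led with 62.2 ± 12.2 in CTL and 46.9 ± 8.73 with TGF-β1 (SD, n = 3 each). It supplied 47.6% ± 4.2 of the summed level of the 10 genes in CTL and 39.7% ± 1.6 with TGF-β1 (SD, n = 3 each). In CTL, Klf9 (13.8 ± 0.94) and Klf10 (13.1 ± 2.6) followed, then Klf4 (10.1 ± 1.2) and Klf13 (10.1 ± 0.51). With TGF-β1 the order was Klf10 (18.4 ± 3.5), Klf13 (15.9 ± 1.9), Klf9 (11.4 ± 0.88), Klf11 (9.47 ± 1.7) and Klf4 (7.03 ± 0.75). Klf7 (7 ± 0.77 and 5.84 ± 0.3), Klf5 (4.05 ± 0.34 and 1.97 ± 0.52), Klf2 (1.25 ± 0.32 and 0.659 ± 0.17) and Klf15 (0.35 ± 0.086 and 0.11 ± 0.052) held the last 4 places in both groups. Klf9 and Klf10, and Klf4 and Klf13, were within their spread of each other in CTL.
Ordered by the mean over all 6 cultures, 7 of the 9 neighbouring pairs kept their order in all 6 libraries and 2 turned over. The Klf13 to Klf9 ratio was -0.50, -0.43 and -0.40 on the log2 scale in CTL replicates 1, 2 and 3 and 0.51, 0.40 and 0.51 with TGF-β1, so Klf13 was below Klf9 in each CTL culture and above it in each TGF-β1 culture. The Klf4 to Klf11 ratio likewise went from 0.29, 0.64 and 0.08 to -0.55, -0.25 and -0.45. The ratio of Klf6 to Klf10 was the steadiest of the neighbouring pairs within each group, at 2.24 ± 0.034 on the log2 scale in CTL and 1.35 ± 0.023 with TGF-β1 (SD, n = 3 each). With 3 cultures against 3, a two-sided exact permutation test of such a ratio cannot go below p = 0.1. The summed level of the 10 genes was 130 ± 14.7 CPM per kb in CTL and 118 ± 17.7 with TGF-β1 (SD, n = 3 each). Within numbers 1, 2 and 3 it differed by -10.9, -15.8 and -10.1 CPM per kb (mean -12.3, SD 3.07), lower with TGF-β1 in 3 of 3 pairs, while the groups overlapped. All these levels are scaled to library size without TMM factors, which were 1.02 to 1.03 in CTL and 0.96 to 0.987 with TGF-β1. This scale places TGF-β1 levels lower against CTL than the TMM scale does. With library size only, the median log2 fold change of all genes tested was -0.0767, against -0.003 with TMM. The sums were not recomputed with TMM factors.

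**Figure D3:**
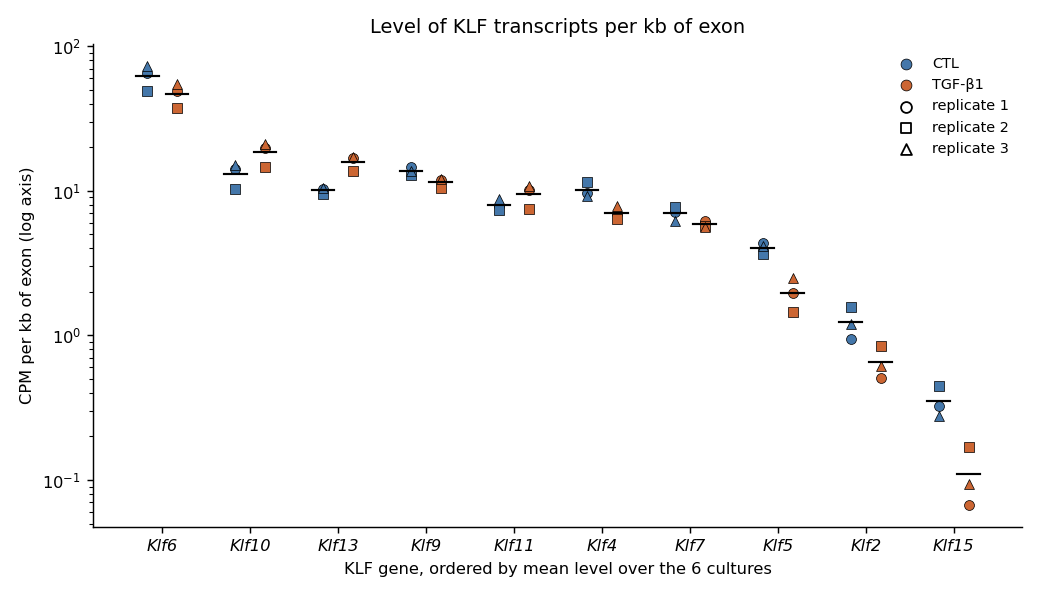
Level of each KLF gene in CPM per kb of exon (vertical axis, log scale) in CTL (blue) and TGF-β1 (orange) cultures, with black lines at the group means and symbols for replicate numbers. Klf6 is highest in every library, Klf13 is below Klf9 in CTL and above it with TGF-β1, and Klf2 and Klf15 are lowest.

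Of 7 other Klf genes, 4 had enough counts to be tested and 1 passed. Klf3, which represses through CtBP, fell from 5166 ± 346 to 3954 ± 287 normalized counts (SD, n = 3 each; log2 fold change -0.39, adjusted p = 0.0274, edgeR). Its adjusted p was 0.0513 to 0.0918 in the 6 fits without 1 culture, so it was lost in each of them. With the replicate block Klf3 passed and so did Klf8, a repressor close to Klf3, which was at 137, 83.6 and 138 normalized counts in CTL and 203, 148 and 239 with TGF-β1. The groups of Klf8 did not overlap, and its log2 difference of 0.72 had an adjusted p of 0.133 without the block and 0.00198 with it (edgeR). Klf1, Klf14 and Klf17 were below the filter. Of 9 Sp factors, which bind the same GC boxes, 7 were tested and 1 passed. Sp4 fell from 435 ± 30.8 to 284 ± 7.3 normalized counts (SD, n = 3 each; log2 fold change -0.61, adjusted p = 0.0109, edgeR) and passed in 4 of the 6 fits without 1 culture. With the block 1 Sp factor was higher and 2 were lower. Sp5 had a log2 difference of -1.17 (adjusted p = 0.000212) and Sp6 of 0.51 (adjusted p = 0.0337, edgeR with the block), against adjusted p of 0.175 and 0.362 without it. The median log2 fold change of the tested Sp factors was -0.04.
Among 11 cofactors and ubiquitin ligases of KLFs, 2 were higher and 1 was lower. Fbxw7, the substrate receptor of a ubiquitin ligase of Klf5, rose from 1478 ± 35.8 to 2050 ± 51 normalized counts (SD, n = 3 each; log2 fold change 0.47, adjusted p = 0.00436, edgeR) and passed in all 6 fits without 1 culture. Wwp1, a ubiquitin ligase of Klf2 and Klf5, fell from 2755 ± 285 to 2009 ± 41.7 (log2 fold change -0.46, adjusted p = 0.0208, edgeR), and passed in 3 of the 6. Sin3b, the corepressor scaffold, rose by a log2 fold change of 0.22 (adjusted p = 0.0399, edgeR) and passed in none of the 6 fits without 1 culture (adjusted p from 0.0552 to 0.159). With the block, 4 of the 11 were higher and 1 was lower.

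Of 11 TGF-β response and feedback genes, 4 were higher and 0 were lower (edgeR), and with the replicate block 7 were higher and 3 were lower. Pmepa1, an inhibitor of the pathway, rose by 0.87 on the log2 scale (SE 0.12, edgeR adjusted p = 0.0105), against 0.73 for Klf13, and passed in 4 of the 6 fits without 1 culture. Skil, which encodes the Smad corepressor SnoN, rose from 6865 ± 510 to 11635 ± 323 normalized counts (SD, n = 3 each, log2 difference 0.76, edgeR adjusted p = 0.00379) and passed in all 6.
Of 12 cell cycle genes linked to Klf4 and Klf5, 5 were lower and 2 were higher, and with the block 5 were lower and 4 were higher. In the 6 fits without 1 culture, 2 to 6 of the 12 passed. Ccna2 and Ccnb1, cyclins of S phase and mitosis, had log2 fold changes of -2.28 and -2.04 (adjusted p = 0.00379 and 0.012, edgeR) and passed in 6 and 5 of these 6 fits. Cdkn2b and Cdkn2a, inhibitors of cyclin-dependent kinases, had 0.85 and 0.42 (adjusted p = 0.00379 and 0.0441, edgeR). Cdkn2b passed in 6 of the 6 fits and Cdkn2a in 1, with an adjusted p of up to 0.165. Cdkn1a, an inhibitor that Klf4 can induce, did not pass (log2 fold change 0.44, adjusted p = 0.0966), though it did with the block (adjusted p = 0.00141, edgeR).
Of 11 amino acid and fuel genes linked to Klf15, 10 were tested, 2 were lower and 0 were higher, and with the block 5 were lower and 1 was higher. Prodh, which starts proline breakdown, fell from 170 ± 13.1 to 74.5 ± 4.8 normalized counts (SD, n = 3 each; log2 fold change -1.19, adjusted p = 0.0061, edgeR) and passed in all 6 fits without 1 culture. Acadm, of medium-chain fatty acid oxidation, had a log2 fold change of -0.39 (adjusted p = 0.0237, edgeR) and passed in 2 of the 6. The median of the tested genes was -0.40, against -0.003 for all genes tested. This list, like the others, was chosen with earlier results of these data known.
Of the 7 epithelial markers, 2 were lower and 0 were higher, and with the block 5 were lower, Epcam, Cdh1 and Krt19 being added (adjusted p = 0.0376, 0.0194 and 0.00039, edgeR). Cdh16 and Pax8, both kept by mature tubule cells, had log2 fold changes of -1.50 and -0.77 (adjusted p = 0.00922 and 0.00436, edgeR). Aqp1 and Lrp2 of the proximal tubule had -2.91 and -0.93 (adjusted p = 0.00919 and 0.0165, edgeR), the 2 of 4 tested proximal tubule markers that passed. With the block Hnf4a, a transcription factor of the proximal tubule, was the third to pass (adjusted p = 0.00448, edgeR). The loop and distal list had 0 of 2 and the collecting duct list 0 of 1, and with the block 1 each was lower. The fibroblast and mural list had 0 of 7 tested genes past the threshold by edgeR, and 4 with the block, 2 higher and 2 lower. The podocyte list had 0 of 4, and 4 of 4 lower with the block. The leukocyte list had 1 of 6, Csf1r (log2 fold change -1.32, adjusted p = 0.0238, edgeR), which passed in 3 of the 6 fits without 1 culture, and 1 with the block. The endothelial list had 0 of 3 in both fits.

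**Figure D4:**
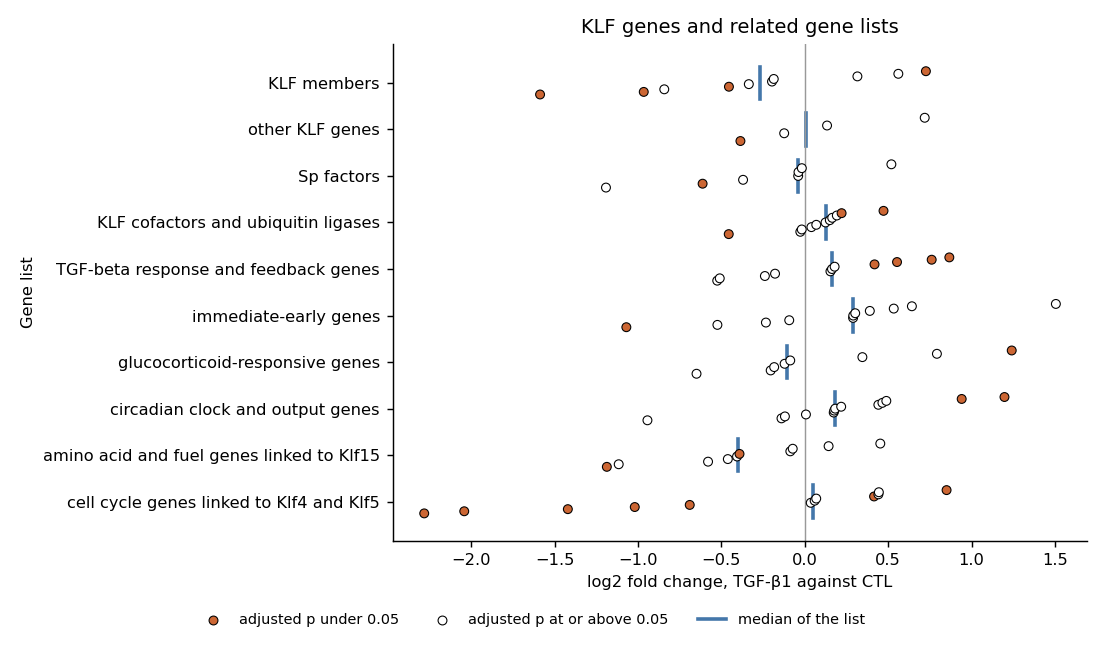
Log2 fold change of TGF-β1 against CTL (horizontal axis) for every tested gene of the KLF genes and 9 related lists, with filled points at an adjusted p under 0.05 (edgeR, no block) and a blue line at each list's median. The KLF genes run from -1.59 to 0.73 around a median of -0.27, and the amino acid and fuel list has its median at -0.40.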

How the data were processed

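For every one of the 6 RTEC cultures the authors deposited raw counts per gene. Per the paper's methods and the submitters' processing notes, single-end reads were trimmed with Trim Galore, aligned to GRCm38 (mm10) with STAR 2.4.1d and counted with HTSeq 0.6.1; the annotation release and strand setting are not given in the sources used here. Lines that name no gene (25.4% to 25.9% of all counts, with theirs included) were left out. Symbols, positions and exon lengths came from GENCODE M21 (46005 of 46517 identifiers matched, versions dropped). Klf7 overlaps antisense genes that had at most 1 count. As the strand setting is not given, reads in exons they share with Klf7 may have been left out as ambiguous.

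Tests used edgeR 4.0.16 under R 4.3.3 (filterByExpr, TMM, robust glmQLFit, two-sided glmQLFTest, Benjamini-Hochberg over 15862 genes, threshold 0.05). Standard errors came from the F statistic. There was no block, as the paper describes no pairing. Deviations from group means correlated across genes at 0.34, 0.684 and 0.572 within numbers 1, 2 and 3, and at -0.617 to 0.215 across numbers. Libraries differed by at least 9.02 in chi-square per degree of freedom, so none was a copy.

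Alternatives were the replicate block, DESeq2 1.42.0, limma-voom (limma 3.58.1), RLE, library size only, 2 other filters, and leaving out each culture or both of a number. The fits were tested on 1 simulated data set with no shared effect of the number. They recovered the size of the changes, but the share of false calls was above the threshold in each of the 4 kinds of fit tested, more with the block than without it and most with DESeq2. 3 counts, the floor for counting error, equal 0.0878 to 0.106 CPM. Named genes were the 10 KLF genes, in each list the 2 largest rises and 2 largest falls past the threshold, and those most like 2 KLF genes. Some listed genes are not reported here and were left out of their lists. Cdkn1a, the low markers and the markers named for replicate 2 were named after their values were seen. So were Klf8, Sp5, Sp6, Epcam, Cdh1, Krt19 and Hnf4a, which passed with the block but not in the test of the 2 groups. The KLF genes and lists were chosen with earlier results of these data known. Figures used matplotlib 3.10.9.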

Additional observations from a re-analysis of the deposited data

How the results depend on the processing

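All 10 KLF genes kept the direction of their log2 fold change in each of the 16 alternatives that gave them a value; Klf15 had none with at least 10 counts in every sample. Against 1 higher and 3 lower KLF genes, the replicate block gave 3 and 6, DESeq2 gave 2 higher, limma-voom gave 2 lower (its other count stayed at 1), and at least 10 counts in every sample gave 1 lower. With 1 culture left out, 1 to 2 were higher and 0 to 2 lower, and leaving out both of a number gave 0 to 3 of each. Over all genes, against 793 higher and 1061 lower, the block gave 2388 and 3037, DESeq2 gave 1201 higher genes, and library size only gave 508 and 1467, so that 25.7% of calls were higher in place of 42.8%; that scaling moved the median of all genes to -0.0767 and changed no KLF call. With 1 culture left out, 109 to 516 genes were higher and 186 to 807 lower, the fewest without CTL replicate 1. Without both replicate 1 cultures 0 genes passed by edgeR, with 1938 at an unadjusted p under 0.05. Without both replicate 2 or 3 cultures 1084 and 95 were higher and 1290 and 190 lower. Per kb ranks were unchanged with the longest transcript, and 5 of 10 moved without division by length. The cause was not tested. Depth limits Klf15 and Klf2 most, with 6 and 30 reads in their lowest libraries.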

Other observations

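Lists of genes that share inducers with the KLFs were also examined. Of 14 circadian clock and output genes, 13 were tested, 2 were higher and 0 were lower (edgeR). Bhlhe41, a repressor that binds E boxes, rose from 825 ± 11.4 to 1892 ± 72.9 normalized counts (SD, n = 3 each; 2.29-fold, adjusted p = 0.000816, edgeR). Arntl, the activator of the clock, rose from 726 ± 3.8 to 1394 ± 29.8 (log2 fold change 0.94, adjusted p = 0.00121, edgeR). Both passed in all 6 fits without 1 culture. With the replicate block 6 of the 13 were higher and 1 was lower. Of 9 glucocorticoid-responsive genes, 8 were tested and 1 passed. Fkbp5, a chaperone partner of the glucocorticoid receptor, rose from 403 ± 39.2 to 953 ± 256 normalized counts (SD, n = 3 each, log2 fold change 1.24, adjusted p = 0.0166, edgeR). It passed in 4 of the 6 fits without 1 culture. Its direction was opposite to that of Klf15, and the 7 tested genes of the list that did not pass lay in both directions. Klf9 did not pass the test of the 2 groups. A shared inducer was not tested. The median log2 fold change of the 8 tested genes was -0.10, against -0.003 for all genes tested. With the block 3 of these 8 were higher and 2 were lower. Of 11 immediate-early genes 1 passed. Fos fell from 494 ± 45.1 to 235 ± 6.8 normalized counts (SD, n = 3 each; log2 fold change -1.07, adjusted p = 0.00379, edgeR), and with the block 5 were higher and 3 were lower.

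Of 10910 genes with a mean of at least 5 CPM, those whose log2 CPM most resembled Klf13 over the 6 cultures were Adgrb1, Tspan6 and Pdlim4, with Pearson r of 0.999, 0.998 and 0.997. Those most like Klf5 were Ttc8, Nfe2l2 and Limd1, with r of 0.998, 0.998 and 0.998. These are descriptions over 6 points that share libraries, depth, treatment and replicate number; 147 genes had r above 0.95 with Klf13 and 728 with Klf5.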
